A study of Mus musculus with 12 samples.

Results

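The genes of glucose uptake, glycolysis and glycogen metabolism carry glucose into the muscle fibre, split it to pyruvate, and store or release it as glycogen. A list of 35 such genes, picked by their known function with earlier results of these data at hand, was followed in mouse gastrocnemius, the mostly fast-twitch calf muscle. Of these, 31 have a probeset with a single gene symbol and all 31 passed the filter on dim genes, among 22180 genes measured and 13308 tested. Gpi1, Aldoa, Eno1 and Pfkfb1 have no such probeset and were not analysed here.

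In working muscle, glucose enters through transporters of the GLUT family, is trapped by hexokinase and is committed to glycolysis by phosphofructokinase, which fructose 2,6-bisphosphate activates. Glycogen is made by glycogen synthase and broken down by glycogen phosphorylase, and protein phosphatase 1, brought to the glycogen particle by targeting subunits, favours its synthesis. ERRα, the orphan nuclear receptor encoded by Esrra, is known mainly as an activator of mitochondrial energy metabolism.

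Expression was measured in 12 muscles with Mouse Gene 2.0 ST arrays of Affymetrix, in 4 groups of 3 biological replicates, and the values are log2 expression levels. The groups were sedentary wild-type mice, sedentary ERRα-null mice, wild-type mice 2 h after a treadmill run to exhaustion, and ERRα-null mice 2 h after the same run. All were FVB mice aged 2 to 3 months and labelled male, and the ERRα-null allele is not described in the sources used here. Groups follow the sample titles, while the source names give another exercise state for sedentary ERRα-null and exercised wild-type samples.

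Esrra lay between 7.41 and 7.63 on the 6 wild-type arrays and between 6.55 and 6.89 on the 6 ERRα-null arrays, in the order of the labels. The fast-fibre markers averaged between 12.85 and 12.98 on every array. On 3 exercised arrays (wild type replicate 3 and ERRα-null replicates 2 and 3) Xist was above the Y-linked Eif2s3y, a female profile against the label. Transcripts of other tissues were high on some sedentary arrays. The mean of 8 measured adipocyte markers of 10 listed ran from 6.64 to 9.63 in sedentary wild type, from 6.97 to 8.62 in sedentary ERRα-null, and from 6.76 to 7.48 on the exercised arrays. The 10 liver markers averaged up to 10.35 (sedentary wild type replicate 1), the 6 measured B-cell markers of 7 up to 8.03 and the 4 seminal vesicle markers 12.43 (both sedentary ERRα-null replicate 1). The highest means of all 4 lists were on sedentary arrays, and the exercise comparisons were therefore refitted with the liver, adipocyte and B-cell means as covariates and without 3 arrays of high Ucp1, a brown adipocyte gene. In bulk tissue, fewer cells of a type and less RNA per cell cannot be told apart.

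The promoters of 4 genes that rose after exercise are shown first, since they hold ACGTG. This motif was also found in genes of the set that were not called, named further on. Of the 7 genes called below, 5 hold it. The fifth is Pfkfb3, which fell, and Pfkfb4, which rose, has no match. They are 300 bases long, from 250 before to 50 after the start of the gene, from RefSeq (build GRCm38.p6), each written 5′ to 3′ on the strand of the gene, with every match to ACGTG on either strand in capitals (a match on the opposite strand reads CACGT). Where capitals run over 6 letters as CACGTG, the palindromic E-box, ACGTG is read on both strands.
Slc2a1, chr4:119108495-119108794, plus strand: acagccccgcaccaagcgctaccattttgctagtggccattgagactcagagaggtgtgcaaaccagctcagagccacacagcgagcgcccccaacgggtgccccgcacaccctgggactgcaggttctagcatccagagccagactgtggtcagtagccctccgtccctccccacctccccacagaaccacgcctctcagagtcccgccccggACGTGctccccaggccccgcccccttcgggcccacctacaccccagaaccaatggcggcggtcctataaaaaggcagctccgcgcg
Hk2, chr6:82774405-82774704, minus strand: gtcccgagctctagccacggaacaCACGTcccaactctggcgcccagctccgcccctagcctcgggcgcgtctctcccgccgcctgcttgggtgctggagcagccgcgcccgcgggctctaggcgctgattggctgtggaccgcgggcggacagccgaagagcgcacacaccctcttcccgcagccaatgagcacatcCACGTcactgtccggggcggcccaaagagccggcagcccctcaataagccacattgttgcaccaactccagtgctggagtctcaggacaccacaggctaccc
Ppp1r3c, chr19:36736555-36736854, minus strand: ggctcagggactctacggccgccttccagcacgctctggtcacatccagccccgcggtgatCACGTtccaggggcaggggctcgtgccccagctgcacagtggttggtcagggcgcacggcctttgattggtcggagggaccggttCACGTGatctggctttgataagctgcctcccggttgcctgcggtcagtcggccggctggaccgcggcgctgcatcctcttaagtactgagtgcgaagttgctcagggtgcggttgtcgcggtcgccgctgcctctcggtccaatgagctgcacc
Fbp2, chr13:62858351-62858650, minus strand: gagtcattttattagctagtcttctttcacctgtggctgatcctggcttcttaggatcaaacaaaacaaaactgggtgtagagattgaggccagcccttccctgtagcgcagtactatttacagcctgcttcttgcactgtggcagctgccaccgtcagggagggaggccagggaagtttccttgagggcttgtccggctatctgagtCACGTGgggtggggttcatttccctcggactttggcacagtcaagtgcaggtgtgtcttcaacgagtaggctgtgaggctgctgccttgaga

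RefSeq gave 49 promoters for 33 of the 35 genes. Gpd1 and Slc2a4 have no entry. ACGTG, the core shared by E-boxes and hypoxia response elements, was found on either strand in 21 of these 49 promoters (42.9%) and in 19.6% of all 32851 promoters of the same length. Among the 8 promoters of the 7 genes called in any comparison below, 6 held it. Counted from the start of the gene, it lay at -36 in Slc2a1, at -226 and -52 in Hk2, at -189 in Ppp1r3c and, as part of an E-box, at -104 in Ppp1r3c and -42 in Fbp2. Pfkfb3 holds it in both of its promoters, at -60 in one and, as part of an E-box, at -53 in the other. The promoters of Pfkfb4 and Pfkp hold none. ACGTG was also in promoters of Aldoc, Gapdh, Gpd2, Gyg, Hk1, Pfkm, Pgam1, Pgk1, Pkm, Pygb, Pygm and Ugp2. These genes were called in no comparison. Aldoa, not analysed here, held it too. The E-box CACGTG stood in 5 of the 49 promoters (10.2%, against 7.15% of all), those of Fbp2, Gyg, Pfkm, Ppp1r3c and one of the 2 of Pfkfb3. The extended ERR response element TCAAGGTCA was in none of the 49 and in 0.423% of all promoters. Its core AAGGTCA, which the longer motif contains, was in 3 (6.12%, against 4.72% of all), those of Eno1, Pfkfb1 and Tpi1. The cAMP response element TGACGTCA was in none (1.79% of all) and the forkhead motif GTAAACA in that of Aldoc (2.04%, against 3.65% of all). These are matches of letters in a short window, and promoters of the same gene can overlap. In Aldoa, overlapping promoters hold the same ACGTG site, which was counted for each.

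Averaged over genotypes, 5 of the 31 genes rose after exercise: Slc2a1, Hk2, Pfkfb4, Ppp1r3c and Fbp2. One fell, Pfkfb3. By role these are 1 of 2 glucose transporters, 1 of 2 hexokinases, 1 of 2 glycogen-targeting subunits, all 3 measured genes of fructose 2,6-bisphosphate and fructose bisphosphatase, and none of 11 core enzymes. None of the 6 was called once the means of other tissues entered the fit, as given further on. The 6 called genes are 19.4% of the 31, where 6.57% of all 13308 genes were called in this comparison (limma, adjusted p under 0.05). The 5 that rose are set against 3.14% of all genes called higher, and the 1 that fell against 3.43% called lower. The median difference of the 31 was 0.02 on the log2 scale, beside -0.01 for all tested genes.

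**Figure D1:**
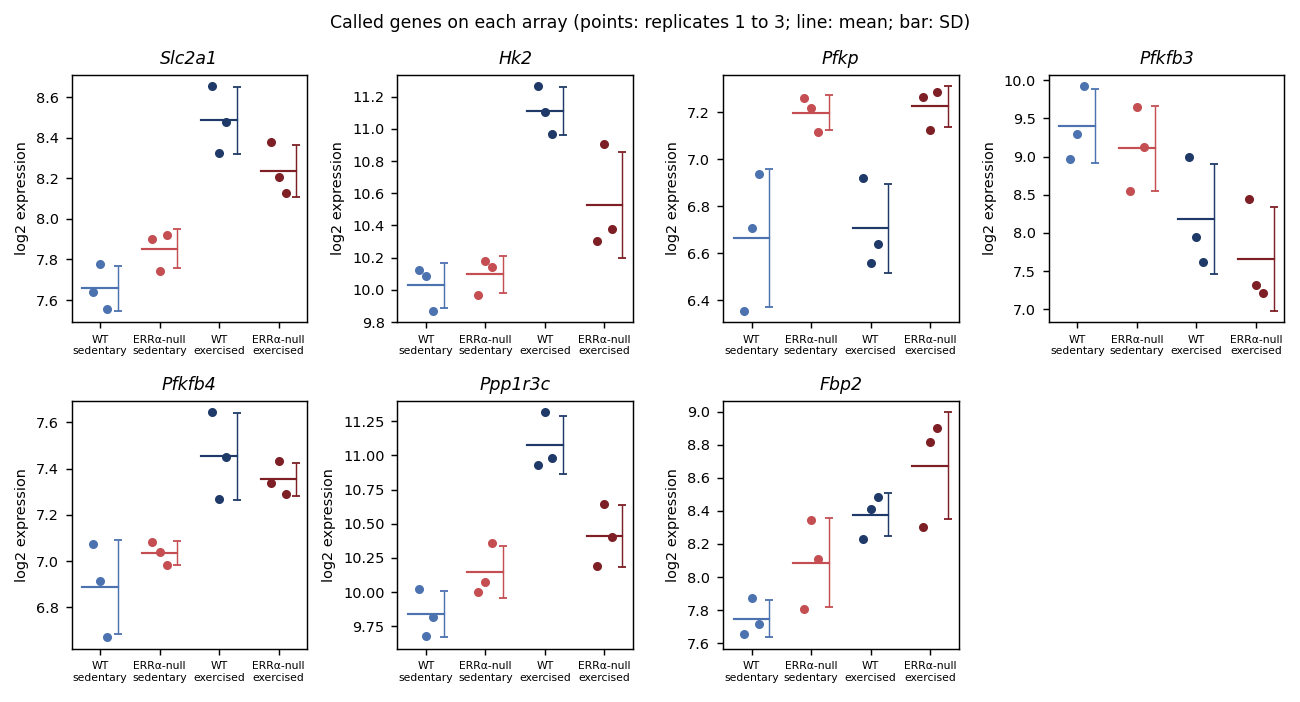
Log2 expression (vertical axis, one scale per panel) of the 7 genes called in at least 1 comparison, on each of the 12 arrays. Points are the 3 replicates of a group, lines their mean and bars the SD. In Hk2 and Ppp1r3c the 3 exercised wild-type arrays lie above all 9 others, while in Pfkp the genotypes are separate in both states.

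Slc2a1 encodes GLUT1, the transporter of basal glucose uptake. Its level was 7.64, 7.78 and 7.56 in sedentary wild type, 7.90, 7.74 and 7.92 in sedentary ERRα-null, 8.66, 8.32 and 8.48 in exercised wild type, and 8.38, 8.21 and 8.13 in exercised ERRα-null muscle. Every exercised array lay above every sedentary one. The average rise was 0.61 ± 0.07 log2 (SE; 1.52-fold, limma adjusted p = 0.000524). It was 0.83 ± 0.10 in wild type (1.78-fold, adjusted p = 0.000822) and 0.38 ± 0.10 in ERRα-null muscle, where it did not pass (adjusted p = 0.137). A second, dim probeset of Slc2a1 with a mean level of 5.15 gave a difference of 0.06, and the mean of both gave 0.33 (adjusted p = 0.00834). Slc2a4, which encodes GLUT4, the transporter that insulin and contraction bring to the fibre surface, ranged from 10.35 to 10.59 over all 12 arrays. Its average exercise difference was 0.00 ± 0.04, with a 95% interval from -0.09 to 0.09.

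Hk2, the hexokinase typical of skeletal muscle, phosphorylates the glucose that has entered. Its level was 10.13, 10.09 and 9.87 in sedentary wild type and 9.97, 10.18 and 10.14 in sedentary ERRα-null muscle. After exercise it was 11.27, 11.10 and 10.97 in wild type but 10.30, 10.91 and 10.38 in ERRα-null muscle. The 3 exercised wild-type arrays were the highest of the 12, and the exercised ERRα-null arrays lay between them and the sedentary ones. Hk2 rose by 1.09 ± 0.14 in wild type (2.12-fold, adjusted p = 0.00118) and by 0.76 ± 0.10 on average (1.69-fold, adjusted p = 0.00101). In ERRα-null muscle the difference was 0.43 ± 0.14 (adjusted p = 0.221). Hk1, the more widely expressed hexokinase, stayed between 5.83 and 6.20, with an average exercise difference of 0.00 ± 0.06 (95% interval -0.14 to 0.14).

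Ppp1r3c encodes PTG, a subunit that brings protein phosphatase 1 to glycogen and glycogen synthase. It was at 10.02, 9.68 and 9.82 in sedentary wild type and at 10.93, 11.32 and 10.98 in exercised wild type, with no overlap. In ERRα-null muscle it was at 10.002, 10.07 and 10.36 at rest and at 10.19, 10.65 and 10.40 after the run, and these ranges overlap. The rise in wild type was 1.24 ± 0.14 (2.36-fold, adjusted p = 0.000421), and the average over genotypes 0.75 ± 0.10 (1.69-fold, adjusted p = 0.00102). The ERRα-null difference was 0.27 ± 0.14 (adjusted p = 0.449). Ppp1r3a, the large glycogen-targeting subunit of striated muscle, had an average difference of -0.18 ± 0.05 that did not pass (adjusted p = 0.0592). Within each genotype its exercised arrays lay below its sedentary ones. In wild type the exercised arrays were at 10.81, 11.08 and 10.88 and the lowest sedentary array was just above, also at 11.08 when rounded.

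Pfkfb3 and Pfkfb4 encode bifunctional enzymes that make and degrade fructose 2,6-bisphosphate, the activator of phosphofructokinase, and they moved in opposite directions. Pfkfb3 was at 8.97, 9.29 and 9.93 in sedentary wild type and at 8.99, 7.95 and 7.62 after exercise. In ERRα-null muscle it was at 8.55, 9.65 and 9.12 at rest and at 8.44, 7.32 and 7.21 after exercise. Replicate 1 of each exercised group was well above the other 2. The average fall of Pfkfb3 was -1.33 ± 0.29 (0.398-fold, adjusted p = 0.0185), and neither genotype passed alone (wild type -1.21 ± 0.41, adjusted p = 0.160, and ERRα-null -1.45 ± 0.41, adjusted p = 0.154). With the 3 arrays of female profile left out, which include the 3 lowest Pfkfb3 values, the average was -0.80. That fit leaves exercised ERRα-null replicate 1 alone in its group. The average of Pfkfb3 lost the call without exercised ERRα-null replicate 2 (-1.24, limma adjusted p = 0.0555) or 3 (-1.22, adjusted p = 0.0516).

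Pfkfb4 was at 7.08, 6.91 and 6.67 in sedentary wild type, 7.08, 7.04 and 6.98 in sedentary ERRα-null, 7.64, 7.27 and 7.45 in exercised wild type and 7.34, 7.43 and 7.29 in exercised ERRα-null muscle. All 6 exercised arrays lay above all 6 sedentary ones. The average rise was 0.44 ± 0.08 (1.36-fold, adjusted p = 0.00738), and that in wild type 0.57 ± 0.12 (adjusted p = 0.0205). The call in wild type was lost without sedentary wild type replicate 2 or 3 or exercised wild type replicate 1 or 3 (adjusted p from 0.0552 to 0.0776). In ERRα-null muscle the difference was 0.32 ± 0.12 (adjusted p = 0.262).

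Fbp2, the muscle fructose bisphosphatase that opposes phosphofructokinase and serves glycogen synthesis from lactate, rose on average by 0.61 ± 0.12 (1.52-fold, adjusted p = 0.00863). It was at 7.66, 7.88 and 7.71 in sedentary wild type and at 8.23, 8.41 and 8.49 after exercise. In ERRα-null muscle it was at 7.81, 8.35 and 8.11 at rest and at 8.30, 8.82 and 8.90 after exercise. The wild-type ranges are apart and the ERRα-null ranges overlap at replicate 1. The difference was 0.63 ± 0.16 in wild type (adjusted p = 0.0594) and 0.59 ± 0.16 in ERRα-null muscle (adjusted p = 0.144), and neither passed alone. In wild type Fbp2 passed in a fit of the 6 wild-type arrays alone (limma adjusted p = 0.0262), but not with a replicate block added there. With the tissue covariates it did not pass. Of the 12 fits with 1 array left out, 2 called it. These were without sedentary (adjusted p = 0.0398) or exercised (adjusted p = 0.0246) ERRα-null replicate 1, where the wild-type difference stayed at 0.63. The highest adjusted p of the 12 was 0.167.

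**Figure D2:**
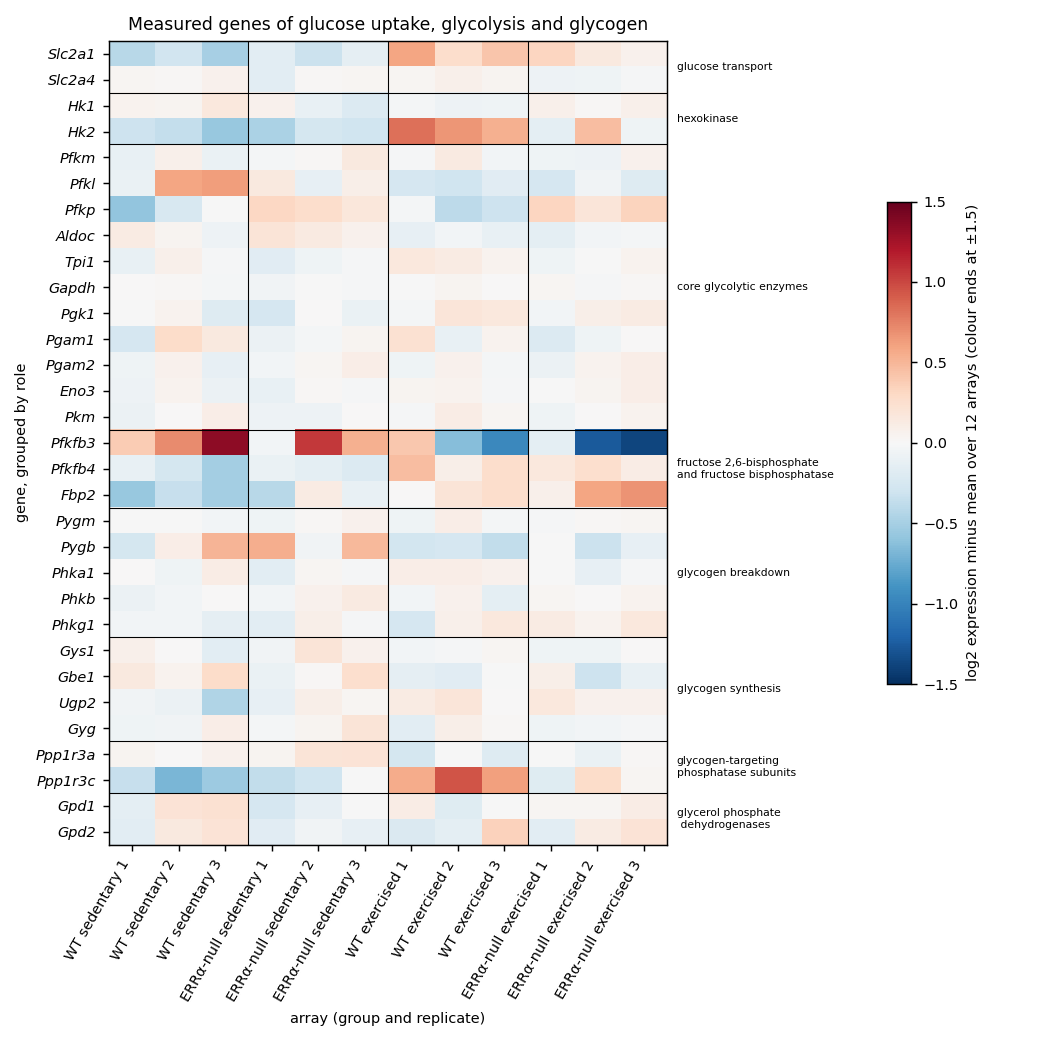
Log2 expression of the 31 measured genes minus the mean of each gene over the 12 arrays (colour), with genes grouped by role in rows and arrays in columns. Pfkfb3 varies most, over a range of 2.71 log2, and Gapdh least, over 0.09. Colours end at 1.5 in either direction.

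The central enzymes came next. Of the 11 measured core glycolytic genes, none was called for exercise on average, by limma. Their median difference was 0.02, and Tpi1, Aldoc, Pgk1 and Pfkl had an unadjusted p under 0.05, as did 22.5% of all genes. The muscle isoforms spanned at most 0.26 log2 over the 12 arrays. Pfkm, muscle phosphofructokinase, stayed between 12.12 and 12.37 over all arrays, with an average exercise difference of 0.00 ± 0.05 (95% interval -0.11 to 0.11). Pgam2, muscle phosphoglycerate mutase, stayed between 11.45 and 11.67 (0.01 ± 0.05). Eno3, muscle enolase, stayed between 13.01 and 13.22, with a difference of 0.08 ± 0.04 (95% interval -0.01 to 0.16). Pkm, pyruvate kinase, stayed between 12.09 and 12.29 (0.04 ± 0.04). Gapdh, often taken as a reference gene, stayed between 13.39 and 13.48 (0.02 ± 0.03). The highest value of any probeset ran from 13.69 to 13.75 on these arrays, so that Gapdh, Eno3 and Pygm were near the top of the scale.

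Tpi1, triosephosphate isomerase, and Pgk1, phosphoglycerate kinase, were also measured. The exercise differences were 0.10 ± 0.04 (adjusted p = 0.177) for Tpi1 and 0.16 ± 0.06 (adjusted p = 0.142) for Pgk1. Aldoc, the brain-type aldolase, was at -0.16 ± 0.06 (adjusted p = 0.151), and Pgam1, the non-muscle mutase, was at -0.03 ± 0.09. None of these 4 passed.

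The enzymes of glycogen breakdown and synthesis followed. Pygm, muscle glycogen phosphorylase, stayed between 13.14 and 13.31 (exercise difference 0.01 ± 0.04, 95% interval -0.06 to 0.09). Gys1, muscle glycogen synthase, stayed between 10.92 and 11.27 (-0.04 ± 0.05, 95% interval -0.16 to 0.07). The phosphorylase kinase subunits Phka1, Phkb and Phkg1 had differences of 0.03, -0.01 and 0.10, and glycogenin, Gyg, of -0.06. Ugp2, which makes the UDP-glucose that glycogen synthase uses, did not overlap between states in wild type (11.95, 11.92 and 11.55 at rest, 12.12, 12.18 and 12.004 after exercise), with a difference of 0.30 ± 0.10 that did not pass (adjusted p = 0.140). Gbe1, the branching enzyme, did not overlap there either (8.98, 8.88 and 9.11 at rest, 8.70, 8.67 and 8.83 after exercise), with a difference of -0.26 ± 0.12 (adjusted p = 0.288). Of the 9 genes of glycogen synthesis and breakdown, none was called in any of the 7 comparisons by limma, and 3 (Ugp2, Gbe1 and Pygb) had an unadjusted p under 0.05 for exercise on average, where 22.5% of all genes had one. The glycerol phosphate dehydrogenases Gpd1 and Gpd2, which pass cytosolic reducing equivalents to mitochondria, were at 0.04 and 0.05 on average.

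Pfkl and Pygb, the liver-type phosphofructokinase and the brain-type phosphorylase, had exercise differences of -0.41 ± 0.12 (adjusted p = 0.0579) and -0.45 ± 0.13 (adjusted p = 0.0723), which did not pass. Pfkl was at 6.65, 7.34 and 7.38 in sedentary wild type, 6.90, 6.63 and 6.84 in sedentary ERRα-null, 6.50, 6.45 and 6.58 in exercised wild type and 6.50, 6.69 and 6.56 in exercised ERRα-null muscle. Pygb was at 6.95, 7.32 and 7.73 in sedentary wild type, 7.76, 7.16 and 7.69 in sedentary ERRα-null, 6.94, 6.96 and 6.85 in exercised wild type and 7.21, 6.88 and 7.09 in exercised ERRα-null muscle. Both were highest on the 4 sedentary arrays with the highest adipocyte marker means (8.81 and 9.63 in wild type replicates 2 and 3, and 8.40 and 8.62 in ERRα-null replicates 1 and 3). Without the 3 arrays with Ucp1 above a log2 level of 9, the differences were -0.16 for Pfkl and -0.22 for Pygb. That fit leaves sedentary wild type replicate 1 alone in its group. The part of adipocytes in these differences was not tested.

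**Figure D3:**
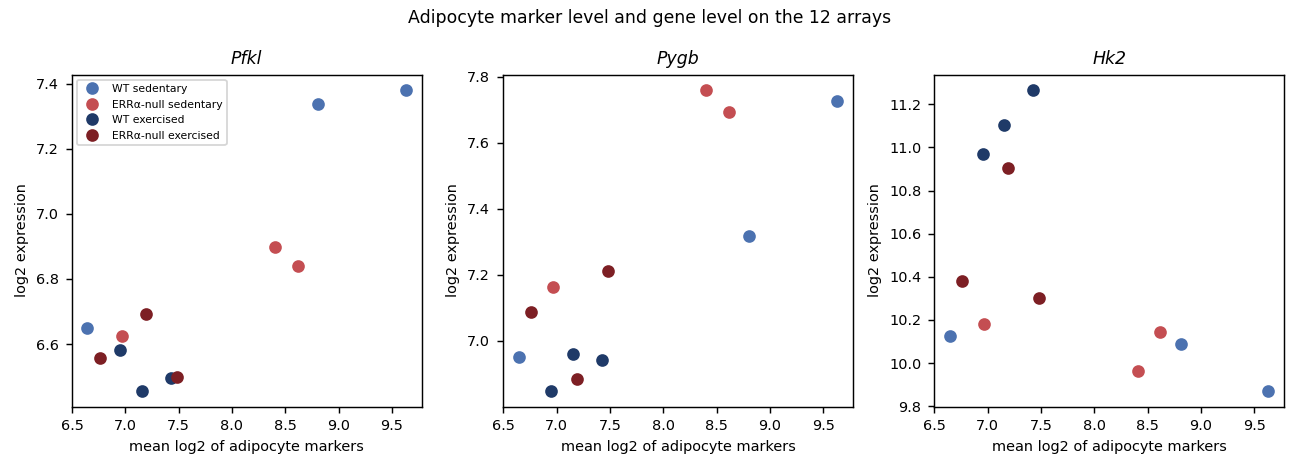
Log2 expression (vertical axes) of Pfkl, Pygb and Hk2 against the mean log2 level of 8 adipocyte markers (horizontal axes) on the 12 arrays, coloured by group. The 4 arrays with a marker mean above 8 hold the 4 highest values of Pfkl and of Pygb and none of the 4 highest of Hk2.

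The same fit with the liver, adipocyte and B-cell marker means as covariates kept the direction of all 6 called exercise averages. The values were 0.81 for Slc2a1 (adjusted p = 0.0554), 0.88 for Hk2 (adjusted p = 0.0929), 0.60 for Pfkfb4 (adjusted p = 0.116), 0.50 for Ppp1r3c (adjusted p = 0.303), 0.32 for Fbp2 (adjusted p = 0.593) and -0.36 for Pfkfb3 (adjusted p = 0.767). None of the 6 passed, and over all genes 92 were called in place of 874. In the fits without the 3 arrays of high Ucp1 or the 3 of female profile, a group is left with a single array. All 6 kept their direction there too. Without the arrays of high Ucp1, Fbp2 was at 0.66, Pfkfb4 at 0.33 and Pfkfb3 at -1.11. Without those of female profile these genes were at 0.40, 0.44 and -0.80.

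Taken by genotype, exercise called 4 of the 31 genes in wild-type muscle, all higher (12.9%, where 2.22% of all genes were called higher and 3.43% in either direction). They were Slc2a1, Hk2, Pfkfb4 and Ppp1r3c. In ERRα-null muscle none was called by limma, where 0.639% of all genes were, and 8 of the 31 had an unadjusted p under 0.05 (13.1% of all genes did). Without exercised ERRα-null replicate 1, Fbp2 was called there (0.77, adjusted p = 0.0355). The sedentary and exercised arrays did not overlap for 10 of the 31 genes in wild type (21.0% of all genes) and for 7 in ERRα-null muscle (19.0% of all genes). With the covariates 1 gene was called in wild type, Slc2a1. The others there were at 1.23 for Hk2 (adjusted p = 0.0569), 0.97 for Ppp1r3c (adjusted p = 0.107) and 0.73 for Pfkfb4 (adjusted p = 0.103). Without the arrays of high Ucp1, which leaves sedentary wild type replicate 1 alone in its group, Hk2 was at 0.99 and Pfkfb4 at 0.38.

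**Figure D4:**
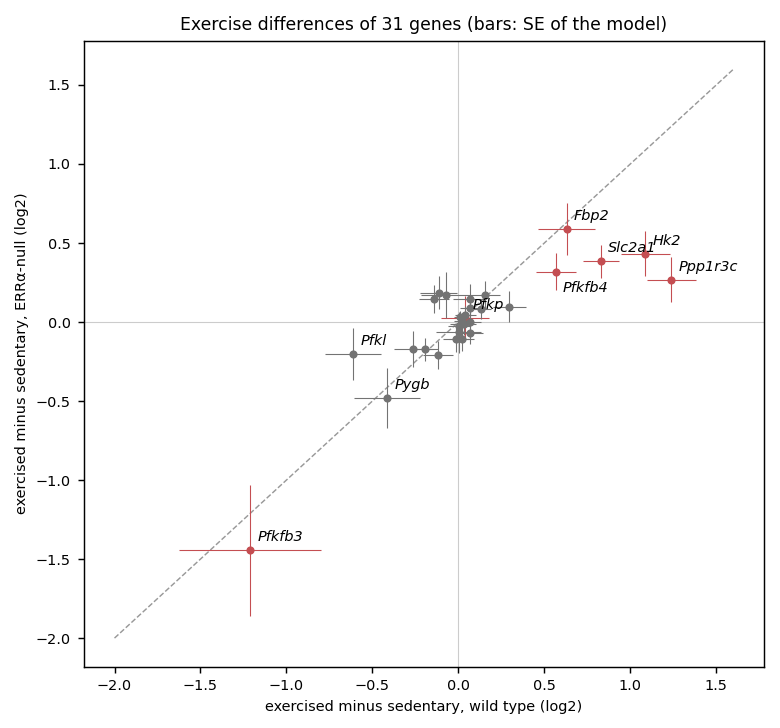
Exercise difference in wild type (horizontal axis, log2) and in ERRα-null muscle (vertical axis, log2) for the 31 genes, with bars of 1 SE of the model and the line of equal differences dashed. Genes called in at least 1 comparison are red. Ppp1r3c, Hk2 and Slc2a1 lie below the line, with 1.24 against 0.27, 1.09 against 0.43 and 0.83 against 0.38.

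The difference between the genotypes in the exercise response was tested as an interaction, and none of the 31 genes was called by limma (1 of 13308 genes was, 0.00751%). At an unadjusted p under 0.05 there were 4 of the 31, where 5.12% of all genes had one. They were Ppp1r3c (-0.97 ± 0.20, adjusted p = 0.394), Hk2 (-0.65 ± 0.20, adjusted p = 0.818), Slc2a1 (-0.44 ± 0.15, adjusted p = 0.882) and Hk1 (0.29 ± 0.12, adjusted p = 0.950). The 95% intervals, which are not adjusted for the number of genes, ran from -1.41 to -0.53 for Ppp1r3c, from -1.09 to -0.21 for Hk2 and from -0.77 to -0.12 for Slc2a1. With the covariates the interaction of Ppp1r3c was -0.93 (adjusted p = 0.32) and that of Hk2 -0.69 (adjusted p = 0.505), and neither passed.

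Of the exercised arrays, the 3 ERRα-null ones all lay below the 3 wild-type ones for Ppp1r3c and for Hk2. The difference of Ppp1r3c was -0.66 ± 0.14 (0.631-fold, adjusted p = 0.0702) and that of Hk2 -0.59 ± 0.14 (0.667-fold, adjusted p = 0.111). None of the 31 genes was called by limma in this comparison (0.376% of all genes were), and 4 had an unadjusted p under 0.05, namely Slc2a1, Hk2, Pfkp and Ppp1r3c (10.4% of all genes did). Equal replicate numbers deviate together in the exercised groups, though the labels give no pairing of mice. Replicate 3 had the female profile in both exercised groups and replicate 1 in neither, while replicate 2 had it in ERRα-null muscle only. The part of sex in this was not tested. A block by replicate number, chosen from these same values, was fitted to the 6 exercised arrays. With it Ppp1r3c was called at the same difference (limma adjusted p = 0.0171), while Hk2 was not (adjusted p = 0.108). Hk2 was called without exercised ERRα-null replicate 2, its highest ERRα-null value (-0.77, adjusted p = 0.0403). The genotypes did not overlap after exercise for 6 of the 31 genes (16.0% of all genes), with Hk2, Ppp1r3c, Slc2a4 and Phka1 lower and Pfkp and Hk1 higher in ERRα-null muscle. The differences of the lesser ones were -0.10 for Slc2a4, -0.14 for Phka1 and 0.12 for Hk1.

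At rest, no gene of the set passed between the genotypes. None of the 31 genes was called by limma for genotype in sedentary mice (0.0827% of all genes were), and 1, Pfkp, had an unadjusted p under 0.05 (8.22% of all genes did). The median difference of the 31 genes was 0.04, and 24 of them lay within 0.2 log2 of wild type (82.4% of all genes did). Ppp1r3c, at 0.30 ± 0.14 (adjusted p = 0.616), and Fbp2, at 0.34 ± 0.16 (adjusted p = 0.635), were among those further off.

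Pfkp, the platelet-type phosphofructokinase, was the one gene of the 31 called for genotype averaged over both states (1.43% of all genes were called, and 0.428% called higher), and it was higher in ERRα-null muscle. It was at 6.35, 6.71 and 6.94 in sedentary wild type and 6.92, 6.56 and 6.64 in exercised wild type, against 7.26, 7.22 and 7.12 in sedentary ERRα-null and 7.27, 7.13 and 7.28 in exercised ERRα-null muscle. Every ERRα-null array lay above every wild-type array. The average difference was 0.53 ± 0.10 (1.44-fold, adjusted p = 0.0217), made up of 0.53 ± 0.14 in sedentary mice (adjusted p = 0.242) and 0.52 ± 0.14 in mice that had run (adjusted p = 0.142). Exercise left it at 0.03 ± 0.10. The call was kept with the covariates of other tissues (0.61, adjusted p = 0.0125). With the 3 arrays of female profile left out, which leaves exercised ERRα-null replicate 1 alone in its group, the difference was 0.53. Single arrays decided the call. It was lost without sedentary wild type replicate 2 or sedentary ERRα-null replicate 1 or 2. The same held without exercised wild type replicate 2 or 3 or exercised ERRα-null replicate 1 or 3. Values there ran from 0.49 to 0.54 and limma adjusted p from 0.0503 to 0.0641. The mean of the 8 slow-fibre markers ran from 9.04 to 9.67 and from 9.56 to 10.11 in sedentary wild-type and ERRα-null muscle, and from 9.20 to 9.87 and from 9.51 to 9.81 after exercise. Its part in the Pfkp difference was not tested.

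**Figure D5:**
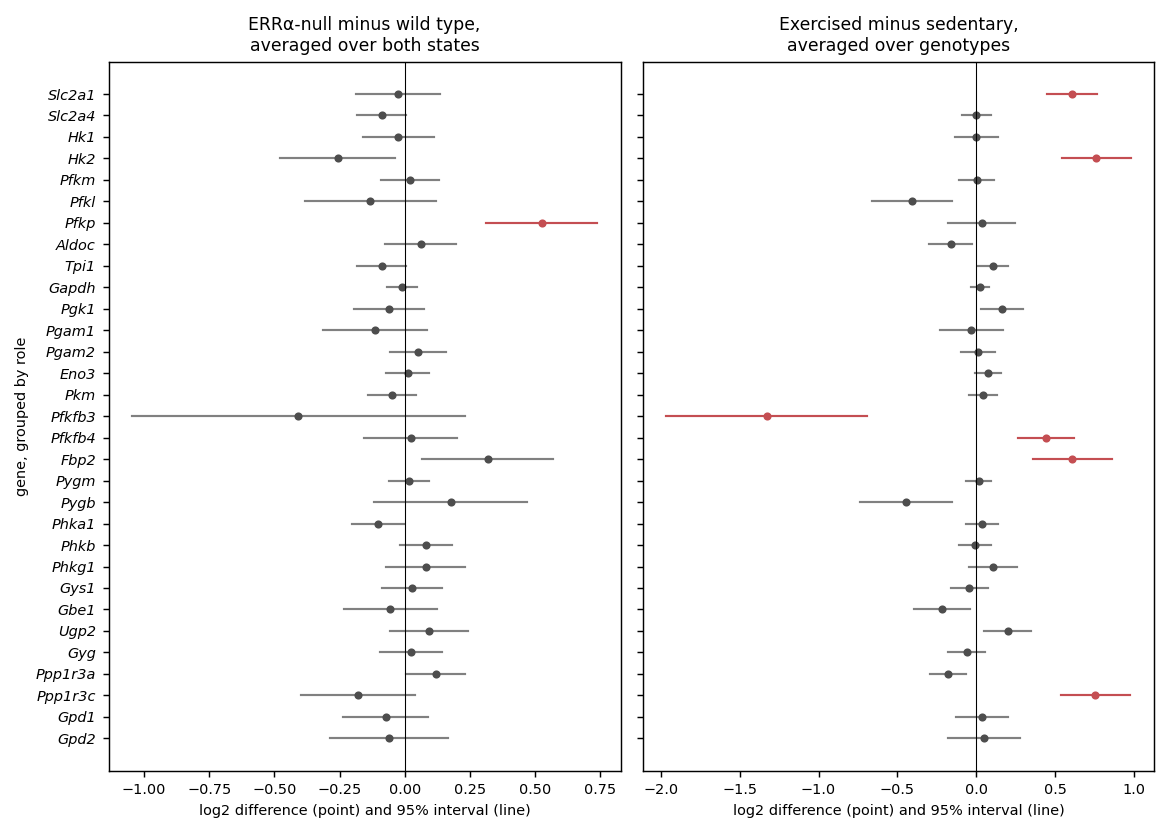
Average difference in log2 expression (points) and its 95% interval (lines, not adjusted for the number of genes) for the 31 genes by genotype (left) and by exercise (right). Called genes are red. Only Pfkp is called on the left, at 0.53, while 5 genes above 0 and Pfkfb3 below 0 are called on the right.

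For the other genes of the set the genotype averages ran from -0.41 (Pfkfb3) to 0.32 (Fbp2). The 95% interval of the average genotype difference was -0.09 to 0.13 for Pfkm, -0.06 to 0.09 for Pygm, -0.09 to 0.14 for Gys1, -0.07 to 0.09 for Eno3 and -0.07 to 0.04 for Gapdh. For Slc2a4 it was -0.18 to 0.0035 and for Hk2 -0.48 to -0.04, at -0.26 ± 0.10 (adjusted p = 0.302).

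Further genes of glucose handling were listed by role in 7 groups with 119 entries, of which 93 were tested. Averaged over genotypes, 5 of the 93 rose after exercise and 6 fell (3.14% of all genes were called higher and 3.43% lower). For genotype averaged over both states none was called by limma, and 15 had an unadjusted p under 0.05, beside 12.4% of all genes. The glycogen list held 17 tested genes. Stbd1, which tethers glycogen to membranes, rose by 0.60 ± 0.11 (1.51-fold, adjusted p = 0.00656), from 6.96 to 7.46 at rest to 7.41 to 8.36 after exercise. Its difference was 0.79 ± 0.15 in ERRα-null muscle (adjusted p = 0.0428) and 0.40 ± 0.15 in wild type (adjusted p = 0.215), and the interaction did not pass (0.40 ± 0.22, adjusted p = 0.997). The ERRα-null call of Stbd1 was lost with the tissue covariates (0.57, limma adjusted p = 0.368). The difference was 0.81 without the arrays of high Ucp1 and 0.44 without those of female profile. The latter leaves exercised ERRα-null replicate 1 alone in its group. Leaving out any of 8 single arrays ended the call too. It held only without sedentary wild type replicate 3, exercised wild type replicate 2 or 3, or exercised ERRα-null replicate 1. Gys2, the liver glycogen synthase, fell by 1.03 ± 0.22 (adjusted p = 0.0156). Of the 16 other genes of glycolysis and gluconeogenesis, Eno2, the neuronal enolase, rose by 0.38 ± 0.07 (adjusted p = 0.00934). Pck1, the cytosolic phosphoenolpyruvate carboxykinase of liver and fat, fell by 1.65 ± 0.31 (adjusted p = 0.00738), and Galm, an aldose epimerase, fell by 0.35 ± 0.09 (adjusted p = 0.0382).

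Among the 11 tested genes of the hexosamine pathway, which draws on fructose 6-phosphate, Gfpt2 rose by 0.83 ± 0.18 (1.77-fold, adjusted p = 0.0186) and Uap1 by 0.39 ± 0.08 (1.31-fold, adjusted p = 0.00948). Gfpt2 catalyses the first step, and it was at 8.73, 8.91 and 7.59 in exercised wild type, at 7.99, 7.96 and 7.94 in exercised ERRα-null muscle and at most 7.52 on the sedentary arrays. In wild type Uap1 had a difference of 0.45 ± 0.11 (adjusted p = 0.0416), against 0.33 ± 0.11 in ERRα-null muscle (adjusted p = 0.216). Gnpda1, a glucosamine 6-phosphate deaminase, had 0.64 ± 0.16 in wild type (adjusted p = 0.0481) and -0.15 ± 0.16 in ERRα-null muscle (adjusted p = 0.732). Both wild-type calls were lost with the covariates (Uap1 0.58, limma adjusted p = 0.230, and Gnpda1 0.66, adjusted p = 0.287). With the arrays of female profile left out, Uap1 was at 0.53 and Gnpda1 at 0.58. Without those of high Ucp1 they were at 0.53 and 0.94, with sedentary wild type replicate 1 alone in its group. Of the 12 fits with 1 array left out, 4 kept the call of Uap1 and 2 that of Gnpda1. Of 17 AMP-activated kinase subunits and glucose-sensing factors, Prkag2, a regulatory subunit, rose by 0.36 ± 0.09 (adjusted p = 0.0311). Prkag3, the regulatory subunit typical of fast glycolytic fibres, fell by 0.51 ± 0.09 (0.702-fold, adjusted p = 0.00448). Of 8 other glucose transporters Slc2a3, which encodes GLUT3, fell by 0.69 ± 0.16 (adjusted p = 0.0252), and of 14 genes of GLUT4 traffic Stxbp3, a syntaxin-binding protein, fell by 0.39 ± 0.08 (adjusted p = 0.0129). None of the 10 tested pentose phosphate genes was called for exercise on average by limma. Their median was -0.15 (-0.01 for all tested genes), and 4 had an unadjusted p under 0.05 (22.5% of all genes did).

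These 11 calls were refitted with the covariates, and none of the 11 was called there. Of the 93 genes only Slc2a2, expressed in liver, was then called, as lower, and it was not called in the main fit. Calls are not given for the fits without the arrays of high Ucp1 or of female profile, which leave a single array in a group. With the covariates the exercise averages were -0.65 for Pck1, -0.78 for Gys2, -0.34 for Slc2a3, -0.52 for Prkag3 and 0.34 for Stbd1. In the fits with 1 array left out, single arrays decided some of these average calls. That of Galm held only without sedentary wild type replicate 2 or exercised wild type replicate 1. Those of Slc2a3 and Prkag2 were lost in several of these fits, and the rest held in all.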

How the data were processed

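RNA of 12 gastrocnemius samples was measured on Affymetrix Mouse Gene 2.0 ST arrays. The authors deposited log2 values, for which the submitters' processing notes name RMA and 2 Affymetrix programs, Transcriptome Analysis Console and Expression Console; they were used unchanged, and the number of arrays limits their precision. Each gene was read from its single-symbol probeset of highest mean, named through the platform annotation (23521 probesets with 1 symbol, 1814 with several, 16010 with none) and RefSeq (23328 matched). The dimmest 40% of genes, below a log2 level of 5.32, were not tested. limma 3.58.1 (R 4.3.3) was fitted to 4 group means over 12 arrays with eBayes and an intensity trend. Benjamini-Hochberg adjustment ran over 13308 genes in each of 7 comparisons (call at an adjusted p under 0.05). Averages weight both genotypes or both states equally. Errors are the SE of the model, with 3 arrays per group; the scripts were tested on simulated data. The labels say biological replicates.

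The main fit used no pairs. Same-numbered arrays were taken to deviate together where their correlation was above 0.1 in every pair. This held between genotypes after exercise (0.31, 0.21 and 0.17) and in no other comparison. The replicate block was run only as an alternative. By rule, values per array are given for each gene of the set called in any comparison, the 2 of smallest p are given where fewer than 2 were called, and up to 4 called genes of smallest p from each other list; Pfkl, Pygb, Ppp1r3a, Ugp2 and Gbe1 were picked for values per array after their values were seen. The genes of the set and all lists were chosen with earlier results of these data known. Alternatives were the filter, probeset choice, trend, centring, replicate block, tissue covariates, and left-out arrays; leaving out the 3 arrays of high Ucp1 was added after seeing the data.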

Additional observations from a re-analysis of the deposited data

How the results depend on the processing

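For the 7 called genes in the 7 comparisons, 960 of 1036 values under an alternative kept their direction and side of the threshold. Of the others, 34 lost the call, 8 gained it and 34 reversed. No reversed value was called in the fit reported. Most of the 49 results were not called there, and these could not lose a call. The totals include the fits that leave a single array in a group. The counts of called genes that follow leave these fits out. Of the 31 genes, exercise on average called 0 with the tissue covariates and 5 to 8 with 1 array left out. Over all genes it called 92 and 543 to 933 there, against 874 in the fit reported. Exercise in wild type called 1 with the covariates, 2 without high Ucp1, and 3 to 5 with 1 array left out, and in ERRα-null muscle 0 to 1. Genotype after exercise called 1 with the replicate block in the 6 arrays and 0 to 1 with 1 array left out. Over all genes it called 73 and 2 to 105 there, against 50 in the fit reported. Genotype on average called 0 to 1 with 1 array left out (79 to 251 of all genes, against 190). Genotype at rest and the interaction called 0 under every alternative run that kept more than a single array per group. The pairing changed no other call between genotypes after exercise. In the comparisons where numbers do not pair the arrays, the replicate block over all 12 arrays gave Fbp2 in wild type an adjusted p of 0.0126 by limma.

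Reversed without the arrays of high Ucp1 were, for genotype at rest, Hk2 (-0.0531), Pfkfb3 (0.12) and Pfkfb4 (-0.0147), for exercise in ERRα-null muscle Pfkp (-0.0127), and for genotype on average Pfkfb4 (-0.0575). Without the arrays of female profile these were Fbp2 for genotype after exercise (-0.0218), Pfkfb3 for the interaction (0.27) and Slc2a1 for genotype on average (0.0426). With the covariates they were Fbp2 for the interaction (0.00595) and Slc2a1 for genotype on average (0.0205), which was 0.0038 with the mean of probesets. With 1 array left out, ranges crossed 0 for Hk2 by genotype at rest (-0.0101 to 0.13), and for Pfkp by exercise in wild type (-0.12 to 0.18), in ERRα-null muscle (-0.0127 to 0.0782) and on average (-0.0441 to 0.10). They also did for the interactions of Pfkp (-0.15 to 0.14), Pfkfb3 (-0.63 to 0.17) and Fbp2 (-0.18 to 0.14), and for genotype on average for Slc2a1 (-0.0669 to 0.0158) and Pfkfb4 (-0.0305 to 0.0711). The cause of these shifts was not tested; leaving out arrays also leaves fewer samples.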

Other observations

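Gpd1, the cytosolic glycerol phosphate dehydrogenase, gave exercise differences of -0.11 ± 0.11 in wild type and 0.19 ± 0.11 in ERRα-null muscle. The states did not overlap in ERRα-null muscle. Neither difference passed (limma adjusted p = 0.650 and 0.487), nor did the interaction (0.30 ± 0.15, adjusted p = 0.994). A second probeset of Gpd1, with a mean level of 6.47, gave 0.02 in wild type and 0.25 in ERRα-null muscle, without the fall in wild type. Gys2, the liver glycogen synthase, was at -1.61 ± 0.31 after exercise in wild type (adjusted p = 0.0149) and at -0.45 ± 0.31 in ERRα-null muscle (adjusted p = 0.572). The interaction of Gys2 did not pass (1.16 ± 0.44, adjusted p = 0.948). Its highest value, 8.15, was on sedentary wild type replicate 3, the array with the highest adipocyte marker mean (9.63). The wild-type call of Gys2 was lost with the tissue covariates (-1.31, limma adjusted p = 0.294). It was also lost with the 6 wild-type arrays fitted alone and without exercised wild type replicate 3. Gys2 was at -1.25 without the arrays of high Ucp1, which leaves sedentary wild type replicate 1 alone in its group. Without those of female profile it was at -1.51.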
